A study of Homo sapiens with 6 samples.

Results

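The mitochondrial ribosomal proteins are the nuclear-encoded proteins of the ribosome that works inside mitochondria. Their mRNAs were taken from the gene tables by symbol, as MRPL or MRPS followed by a number and, where there is one, a paralogue letter from A to C, with pseudogenes left out. The rule found 76 of the 20308 genes in the tables, 48 of the large subunit (MRPL) and 28 of the small subunit (MRPS). All 76 were expressed highly enough to be tested. Another 2 genes with such symbols in the gene name table, MRPL45 and MRPS21, were not analysed here.

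Total RNA was sequenced from LNCaP-AI cells, a castration-resistant prostate cancer line kept under androgen deprivation, which the labels record for both groups. In the shMETTL1 group, METTL1, a methyltransferase that places m7G on RNA, was silenced by a short hairpin RNA, and in the shscramble group the cells had a scrambled hairpin instead. Each group had 3 libraries from the same cell line. The labels do not say whether the 3 came from separate cultures, so p-values measure only the spread between these libraries, which may be technical.

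Mitochondria translate their own small genome with a dedicated ribosome that descends from a bacterial one. It makes the core membrane proteins of the respiratory chain and of ATP synthase, and nothing else. Its rRNAs are transcribed in the mitochondrion, whereas every one of its proteins is made in the cytosol and imported, so that both subunits depend on nuclear genes for their protein. The small subunit reads the mRNA, the large subunit joins the amino acids, and many of the proteins have no bacterial counterpart.

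METTL1 itself averaged 9.02 ± 1.30 FPKM (fragments normalised to transcript length and library size) in shMETTL1 libraries and 17.8 ± 3.62 FPKM in shscramble libraries (SD, n = 3 each), 50.7% of the shscramble level, with no overlap between the groups. The limma test on FPKM did not call it (log2 fold change -0.93, adjusted p = 0.127). By edgeR on the deposited counts it was called (log2 fold change -1.36, adjusted p = 0.0368), so the reduction was larger from counts than from FPKM. Its counts were low, from 9.52 in shMETTL1 replicate 1 to 28.5 in replicate 2, against 36.4 to 65.1 in shscramble libraries. The size of the reduction is therefore uncertain. The deposited counts had been scaled: between 89.6% and 90.9% of the values above 0 were whole multiples, within 0.01, of 1 step per library. Divided by that step, they came to 2650767, 3402855 and 3595523 fragments in shMETTL1 replicates 1, 2 and 3 and 3627513, 4085356 and 3729171 in shscramble replicates 1, 2 and 3, so shMETTL1 replicate 1 was the shallowest. All 9 markers of luminal prostate cells were expressed, with a summed level of 1955 to 2218 FPKM in shMETTL1 and 2472 to 2532 FPKM in shscramble libraries. The fibroblast and muscle list summed to 10.1 to 16.3 FPKM in shMETTL1 and 9.64 to 15.8 FPKM in shscramble libraries. Most of it was COL1A1 (4.95 to 11.2 FPKM in shMETTL1, against 7.94 to 13.5 FPKM in shscramble libraries) and ACTA2 (4.51 to 5.08 FPKM in shMETTL1, against 1.10 to 2.30 FPKM in shscramble libraries, with no overlap), while DCN and LUM were at 0 in every library. Of the endothelial markers VWF reached at most 0.166 FPKM in shMETTL1 and 0.219 FPKM in shscramble libraries, and CDH5 was at 0, as were the leukocyte markers PTPRC, CD3E and MS4A1. The blood list summed to 5.997 to 8.109 FPKM in shMETTL1 and 11.8 to 16.8 FPKM in shscramble libraries, all of it from CD68. The part of these marker lists in the values below was not tested.

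Levels were above those of most genes. The mean over the 6 libraries had a median of 32.98 FPKM for MRPL genes and 40.7 FPKM for MRPS genes, against 13.7 FPKM for all 12156 genes tested, and 69 of the 76 stood above that overall median. Between the most and the least abundant there was a 12.1-fold range in the large subunit and a 17.5-fold range in the small subunit. The low end of the small subunit was MRPS36 at 6.27 FPKM, a protein since assigned outside the ribosome. MRPS10 came next at 9.74 FPKM, so the wider range of the small subunit rests on MRPS36. FPKM is a level per length, so genes can be set side by side on it. It also rests on how fragments were shared among isoforms and overlapping genes, so the order of genes is approximate.

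In the large subunit MRPL3, whose bacterial counterpart reaches towards the peptidyl transferase centre, was the most abundant at 130 ± 29.4 FPKM in shMETTL1 and 124 ± 23.1 FPKM in shscramble libraries (SD, n = 3 each). It was followed by MRPL37 (122 ± 13.2 and 121 ± 9.51 FPKM in shMETTL1 and shscramble) and MRPL51 (118 ± 14.2 and 125 ± 14.3 FPKM), both proteins without a bacterial counterpart. The order of these 3 lies within their spread. At the low end MRPL30 averaged 12.1 ± 7.68 FPKM in shMETTL1 and 8.92 ± 1.04 FPKM in shscramble libraries, MRPL50 averaged 11.07 ± 1.80 and 10.996 ± 1.79 FPKM, and MRPL57 averaged 9.53 ± 0.973 and 13.1 ± 0.740 FPKM. MRPL57 was the lowest of the 3 by its mean in shMETTL1 and the highest in shscramble, and the wide spread of MRPL30 in shMETTL1 covers the other two.

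In the small subunit MRPS34 led with 109 ± 12.3 FPKM in shMETTL1 and 110 ± 12.6 FPKM in shscramble libraries. MRPS15, which binds the small rRNA early in assembly in bacteria, had 90.4 ± 7.12 and 91.2 ± 15.97 FPKM, and MRPS28, the counterpart of bacterial S1, had 98.3 ± 0.959 and 82.0 ± 5.84 FPKM. The lowest were MRPS36 (5.59 ± 4.84 and 6.95 ± 2.66 FPKM), MRPS10 (9.26 ± 1.12 and 10.2 ± 2.70 FPKM) and MRPS12 (16.5 ± 4.01 and 10.7 ± 1.56 FPKM). MRPS36, since assigned to the alpha-ketoglutarate dehydrogenase complex rather than to the ribosome, was also the least reproducible in shMETTL1. It had 20, 11 and 15 fragments before scaling in shMETTL1 replicates and 28, 28 and 50 in shscramble replicates. The median member had 125 fragments per library. The coefficient of variation of FPKM between libraries of a group had a median over members of 13.97% in shMETTL1 and 17.2% in shscramble. Counting error of the fragments alone would give 9.32% and 8.45%. FPKM also rests on how fragments were shared among isoforms, so these percentages are not of the same measure.

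**Figure D1:**
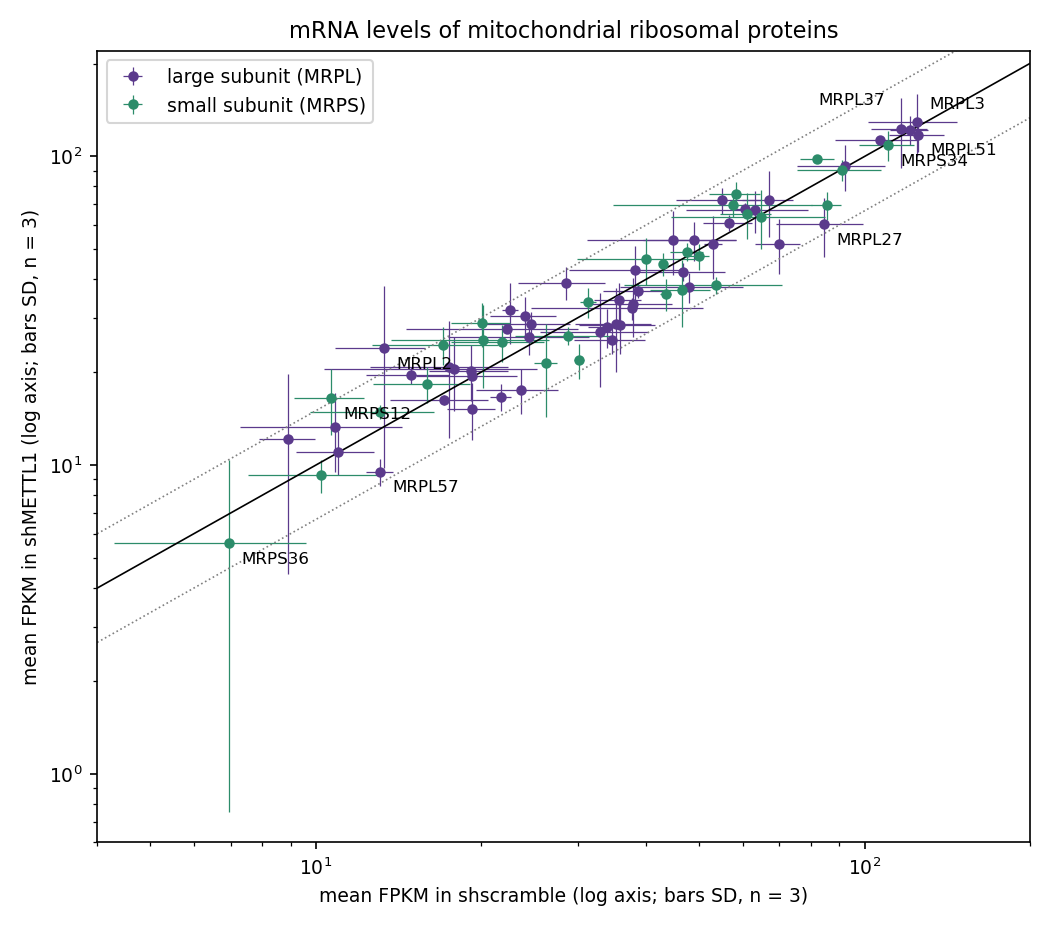
Mean FPKM of each of the 76 genes in shMETTL1 (vertical) against shscramble (horizontal), both on log axes, with SD bars (n = 3 each), MRPL in purple and MRPS in green. The solid line marks equal levels and the dotted lines a 1.5-fold difference. Points run along the solid line from MRPS36 at 5.59 and 6.95 FPKM to MRPL3 at 130 and 124 FPKM, and MRPL2 and MRPS12 lie above the upper dotted line.

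Sequence around the transcription starts, which the symbol rule did not use, was searched for short motifs. RefSeq windows of 250 bases before to 50 bases after the start (GRCh38.p14) were matched for 67 of the 76 genes, 83 windows in all, and searched on both strands for 4 motifs. The letters of the YY1 motif, AAGATGG, were in 31.3% of these windows, against 7.22% of the windows of all tested genes and 5.84% of all windows. The ETS letters CCGGAAG, bound by the factor GABP among others, were in 38.6%, against 17.4% and 10.3%. In the windows of cytosolic ribosomal protein genes the YY1 letters were in 11.5% and the ETS letters in 33.3%. Of the 67 genes 23 had the YY1 letters and 29 the ETS letters, and 43 had at least one of the pair. None of these shares was tested. The NRF1 letters GCGCATG (8.43%, against 6.83% and 4.43%) and the SP1 letters GGGCGG (60.2%, against 66.1% and 44.95%) were near the share in tested genes. The end of the ETS letters, AAG, is the start of the YY1 letters, so those matches can overlap. In MRPL and MRPS windows the shares were 31.4% and 31.25% for YY1, 37.3% and 40.6% for ETS, 9.80% and 6.25% for NRF1 and 54.9% and 68.75% for SP1.

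Position and strand of the YY1 letters were uneven. Matches were counted per window, so a site within several windows of a gene can count more than once. Of the 28 matches, 16 lay after the start, each in a different gene, 7 to 36 bases in counting the start as 1. All 16 were on the strand of the gene. In 12 of the 16 the ATG inside the motif was a start codon annotated in GENCODE v29. Letters on the gene strand after the start were in 19.3% of the members' windows, against 3.12% of those of tested genes. The 4 stretches of 30 bases below show this arrangement in genes of both subunits. Capitals mark the motif, whose ATG is an annotated start codon in MRPL49, MRPS18B and MRPS30 and was not matched to one in MRPL51:
MRPL49: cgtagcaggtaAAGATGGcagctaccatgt
MRPL51: gggtaaggcccAAGATGGctgtcttcgcct
MRPS18B: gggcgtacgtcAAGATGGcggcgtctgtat
MRPS30: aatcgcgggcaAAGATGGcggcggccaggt
They lie at chr11:65122333-65122362 (plus strand), chr12:6493223-6493252 (minus strand), chr6:30617852-30617881 (plus strand) and chr5:44808949-44808978 (plus strand) in that order.

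The ETS letters stood mostly before the start, in 38 of 43 matches, again counted per window. The same MRPS12 site, for instance, counted at -15 and at -5. Of the 38, 25 began within 60 bases of the start, in 20 genes. Such a match was in 26.5% of the members' windows, against 7.95% of those of tested genes. Shown here are 4 genes named for their level or their difference between the groups, with the ETS letters in capitals (CTTCCGG where they read on the other strand):
MRPL3: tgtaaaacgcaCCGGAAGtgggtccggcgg
MRPL27: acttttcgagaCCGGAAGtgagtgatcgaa
MRPS12: acggatagcgcCCGGAAGaggctagaagct
MRPS26: tccccgcgccgCTTCCGGggcacggtggcg
They lie at chr3:131502985-131503014 (minus strand), chr17:50373174-50373203 (minus strand), chr19:38930928-38930957 (plus strand) and chr20:3046004-3046033 (plus strand). A match to these letters is a description of the sequence and was not tested as a binding site.

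Between the groups, no mitochondrial ribosomal protein mRNA passed the test. The comparison asks whether silencing of METTL1 moves the mRNAs of the mitochondrial ribosome in castration-resistant cells. The limma test on log2(FPKM + 0.5) called 0 of 76 (lowest adjusted p = 0.259), where it called 0.123% of all genes tested, and edgeR on the rounded counts called 0 of 76 (lowest adjusted p = 0.0957), where it called 6.33%. DESeq2 and limma on log2 CPM also called 0, where they called 4.72% and 6.65% of all genes, and so did edgeR on the fragments before scaling, which called 6.16%. At an unadjusted p under 0.05, limma had 7 genes higher and 6 lower in shMETTL1, together 17.1% of the 76, against 7.37% higher, 6.8% lower and 14.2% in either direction over all genes. By edgeR 4 were higher and 11 lower at that threshold, where 10.7% of all genes were higher and 12.1% lower. Without shscramble replicate 2, the deepest library, edgeR called 6 of the 76 (7.89%), less than the 17.5% it then called of all genes.

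By limma on FPKM, MRPL2 and MRPS12 were the members with a fitted difference of more than 1.5-fold (log2 fold changes 0.69 and 0.59). By edgeR on counts they had 0.22 and 0.56, and MRPS36 was the one beyond 1.5-fold (-0.89). None of the 3 passed either test. For 29 of the 76 the 95% interval of the fold change lay inside 1.5-fold in both directions, 38.2% of them, against 21.3% of all genes tested and 27.6% of the 8228 genes in the same range of level. For the other members the interval still admits a difference of 1.5-fold or more. The 3 shMETTL1 libraries stood wholly above the 3 shscramble libraries for 10 genes and wholly below them for 7, against 10.5% and 9.33% of all genes.

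**Figure D2:**
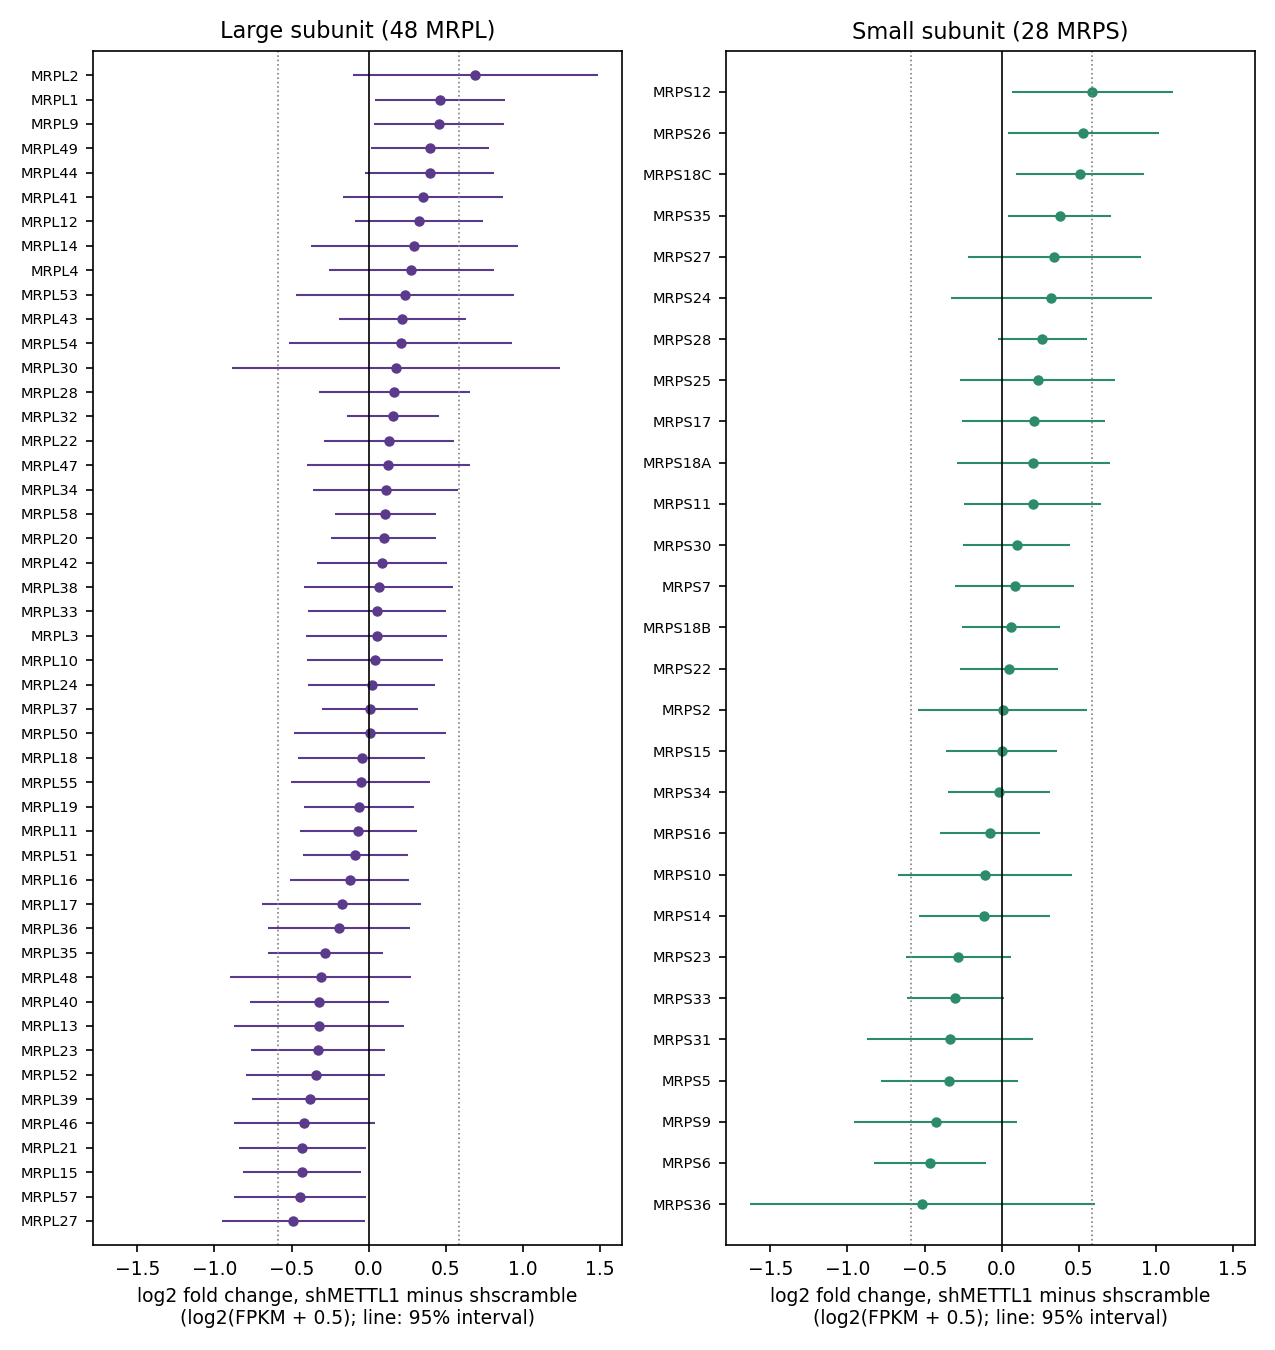
Log2 fold change, shMETTL1 minus shscramble, of every MRPL gene (left) and MRPS gene (right) on the log2(FPKM + 0.5) scale, with its 95% interval from limma, ordered by size. Dotted lines mark 1.5-fold. Values run from -0.49 (MRPL27) to 0.69 (MRPL2) in the large subunit and from -0.51 (MRPS36) to 0.59 (MRPS12) in the small subunit, and most intervals cross 0.

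Large and small subunit had like medians. The median log2 fold change was 0.046 for the 48 MRPL genes (quartiles -0.21 and 0.19) and 0.054 for the 28 MRPS genes (quartiles -0.16 and 0.24), beside 0.022 for all genes tested. By edgeR on the counts the medians were -0.0017 and 0.022. Positive values were seen for 28 MRPL genes and negative ones for 20, and for 16 and 12 MRPS genes, beside 6376 and 5780 of all genes tested. MRPS30 and MRPS18A sit in the large subunit despite their names, and moving them there gave medians of 0.052 and 0.027.

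Summed over genes, MRPL mRNAs had 2219, 2060 and 2103 FPKM in shMETTL1 replicates 1, 2 and 3, against 1953, 2265 and 2137 FPKM in shscramble replicates 1, 2 and 3. The MRPS sum was 1243, 1214 and 1180 FPKM in shMETTL1, against 1140, 1244 and 1177 FPKM in shscramble libraries. Both sums overlapped, with shscramble replicate 1 the lowest and shscramble replicate 2 the highest of the 6 in each. The ratio of the MRPL sum to the MRPS sum was 1.75 ± 0.0505 in shMETTL1 and 1.78 ± 0.0603 in shscramble libraries (SD, n = 3 each). In bulk samples like these, fewer cells of a type and less RNA per cell cannot be told apart. The family as a whole took 0.367% to 0.377% of the deposited counts in shMETTL1 and 0.369% to 0.388% in shscramble libraries.

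Among small subunit genes with higher values in shMETTL1, 4 had an unadjusted p under 0.05. MRPS12, the counterpart of the bacterial decoding-centre protein whose changes give streptomycin resistance, had 12.4, 16.6 and 20.46 FPKM in shMETTL1 replicates 1, 2 and 3, against 8.89, 11.4 and 11.8 FPKM in shscramble replicates. Every shMETTL1 library was above every shscramble library, though shMETTL1 replicate 1 came close. The log2 fold change was 0.59 (SE 0.23, limma adjusted p = 0.312), and 0.56 from counts (edgeR adjusted p = 0.205). The gene was covered by 37, 55 and 77 fragments in shMETTL1, against 34, 53 and 45 in shscramble libraries. Its exons overlap those of SARS2, a mitochondrial seryl-tRNA synthetase gene, which averaged 13.3 ± 3.84 FPKM in shMETTL1 and 18.5 ± 4.04 FPKM in shscramble libraries, so it leaned the other way (log2 fold change -0.48, adjusted p = 0.436). Whether counting used strand is not given in the sources used here, and the share of reads that could pass between the pair was not tested.

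MRPS26, a protein added to the ribosome in mitochondria, had 23.0, 28.5 and 22.1 FPKM in shMETTL1, against 13.4, 21.97 and 15.8 FPKM in shscramble libraries. The groups stayed apart by a narrow margin at shscramble replicate 2. It had a log2 fold change of 0.53 (SE 0.22, adjusted p = 0.326) and of 0.48 from counts, and without shscramble replicate 2 edgeR called it (0.66, adjusted p = 0.0443). MRPS35, also a mitochondrial addition and well covered, had 83.8, 73.3 and 70.3 FPKM in shMETTL1, against 61.5, 51.1 and 62.4 FPKM in shscramble libraries. That is a log2 fold change of 0.38 (SE 0.15, adjusted p = 0.312) and of 0.31 from counts, with no overlap.

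MRPS18C is the one of 3 paralogues that holds the place of bacterial protein S18. It had 34.2, 25.2 and 27.1 FPKM in shMETTL1, against 17.4, 22.3 and 20.6 FPKM in shscramble libraries, a log2 fold change of 0.51 (SE 0.18, adjusted p = 0.280) without overlap. The counts did not show this. They gave 92, 84 and 83 fragments before scaling in shMETTL1, against 88, 104 and 104 in shscramble libraries, and a log2 fold change of 0.082, which became -0.13 without shMETTL1 replicate 1. Its exons overlap ABRAXAS1, which averaged 6.65 ± 1.45 FPKM in shMETTL1 and 10.6 ± 1.96 FPKM in shscramble libraries. The paralogues had smaller values, 0.059 (SE 0.14) for MRPS18B and 0.21 (SE 0.22) for MRPS18A, with overlapping groups. MRPS28 was steady within shMETTL1, at 97.2, 98.8 and 98.9 FPKM, against 87.3, 82.9 and 75.7 FPKM in shscramble libraries (log2 fold change 0.26, unadjusted p = 0.0690), and had 0.11 from counts, which became -0.027 without shscramble replicate 3.

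Among large subunit genes on the higher side, MRPL1, which in bacteria forms the mobile stalk beside the exit site for tRNA, had 39.7, 26.1 and 29.5 FPKM in shMETTL1, against 21.8, 22.8 and 23.3 FPKM in shscramble libraries. Here the shscramble libraries lay close together and the shMETTL1 libraries spread. The log2 fold change was 0.46 (SE 0.19, adjusted p = 0.325) and 0.44 from counts. MRPL49, a mitochondrial addition, had 65.4, 71.8 and 79.3 FPKM in shMETTL1, against 44.7, 64.1 and 56.6 FPKM in shscramble libraries, and a log2 fold change of 0.40 (SE 0.17, adjusted p = 0.346; 0.26 from counts). Without shscramble replicate 2, edgeR called MRPL49 (0.37, adjusted p = 0.0322). Its exons overlap FAU and SYVN1, for which limma gave 0.084 (adjusted p = 0.808) and 0.50 (adjusted p = 0.405).

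MRPL9 had 40.9, 42.6 and 33.5 FPKM in shMETTL1, against 22.6, 32.03 and 30.997 FPKM in shscramble libraries, a log2 fold change of 0.45 (SE 0.19, adjusted p = 0.329), but only 0.12 from counts. MRPL44, an RNase III relative in which inherited changes cause cardiomyopathy, had 18.4, 20.9 and 19.6 FPKM in shMETTL1, against 13.5, 17.9 and 13.3 FPKM in shscramble libraries (log2 fold change 0.40, SE 0.19, adjusted p = 0.371). All 3 shMETTL1 values were above all 3 shscramble values in both genes. MRPL2, named after its values were seen, had the largest fitted difference of the family, 0.69 with an SE of 0.35. It had 40.1, 14.04 and 17.6 FPKM in shMETTL1, against 10.6, 15.5 and 13.9 FPKM in shscramble libraries, so that shMETTL1 replicate 1 stood far from the other 5. It had 51, 34 and 45 fragments in shMETTL1, against 35, 51 and 51 in shscramble libraries, and the count-based value of 0.22 became -0.093 without shMETTL1 replicate 1.

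On the lower side the smallest p of the whole family belonged to MRPS6, the counterpart of bacterial protein S6. It had 25.1, 20.9 and 19.7 FPKM in shMETTL1, against 30.04, 29.7 and 30.9 FPKM in shscramble libraries. The shscramble values lay close together and all above the shMETTL1 values. The log2 fold change was -0.46 (SE 0.16, unadjusted p = 0.0178, adjusted p = 0.259) and -0.44 from counts (edgeR adjusted p = 0.134). Its exons overlap SLC5A3, an inositol transporter gene, which averaged 3.72 ± 0.123 FPKM in shMETTL1 and 5.84 ± 0.848 FPKM in shscramble libraries. MRPS33 (69.4 ± 7.05 and 85.4 ± 5.39 FPKM in shMETTL1 and shscramble) and MRPS23 (35.8 ± 4.26 and 43.4 ± 1.02 FPKM) also had no overlap. Their log2 fold changes were -0.30 and -0.28, and -0.37 and -0.34 from counts. By limma their unadjusted p was 0.0581 and 0.0947 (adjusted p = 0.368 and 0.428).

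In the large subunit MRPL27, which in bacteria reaches into the peptidyl transferase centre, had 45.4, 66.9 and 68.5 FPKM in shMETTL1, against 66.9, 94.6 and 91.4 FPKM in shscramble libraries. Replicate 1 was the lowest of each group, and the groups overlapped because shscramble replicate 1 lay just under shMETTL1 replicates 2 and 3. The log2 fold change was -0.49 (SE 0.21, adjusted p = 0.339) and -0.48 from counts (edgeR adjusted p = 0.106), and edgeR called it without shscramble replicate 1 (-0.64, adjusted p = 0.0377, where it called 3.89% of all genes). MRPL21 had 40.1, 56.6 and 60.1 FPKM in shMETTL1, against 62.3, 71.6 and 75.3 FPKM in shscramble libraries (log2 fold change -0.43, SE 0.18, adjusted p = 0.342), and 59, 110 and 134 fragments against 145, 178 and 173. MRPL15 had 28.3, 23.6 and 24.5 FPKM in shMETTL1, against 30.1, 40.2 and 33.7 FPKM in shscramble libraries (log2 fold change -0.43, SE 0.17, adjusted p = 0.312). Both had every shMETTL1 value below every shscramble value.

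MRPL57 had 10.3, 8.43 and 9.89 FPKM in shMETTL1, against 12.4, 13.8 and 13.2 FPKM in shscramble libraries, and the lowest edgeR adjusted p of the family, 0.0957 (log2 fold change -0.51 from counts and -0.44 from FPKM). It is a short protein with 5 named pseudogenes, to which reads could be lost or from which they could be gained. MRPL39, which resembles a part of threonyl-tRNA synthetase, had 15.998, 15.3 and 18.6 FPKM in shMETTL1, against 22.8, 21.5 and 20.9 FPKM in shscramble libraries (log2 fold change -0.38, SE 0.17, adjusted p = 0.349). The groups did not overlap in either gene.

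**Figure D3:**
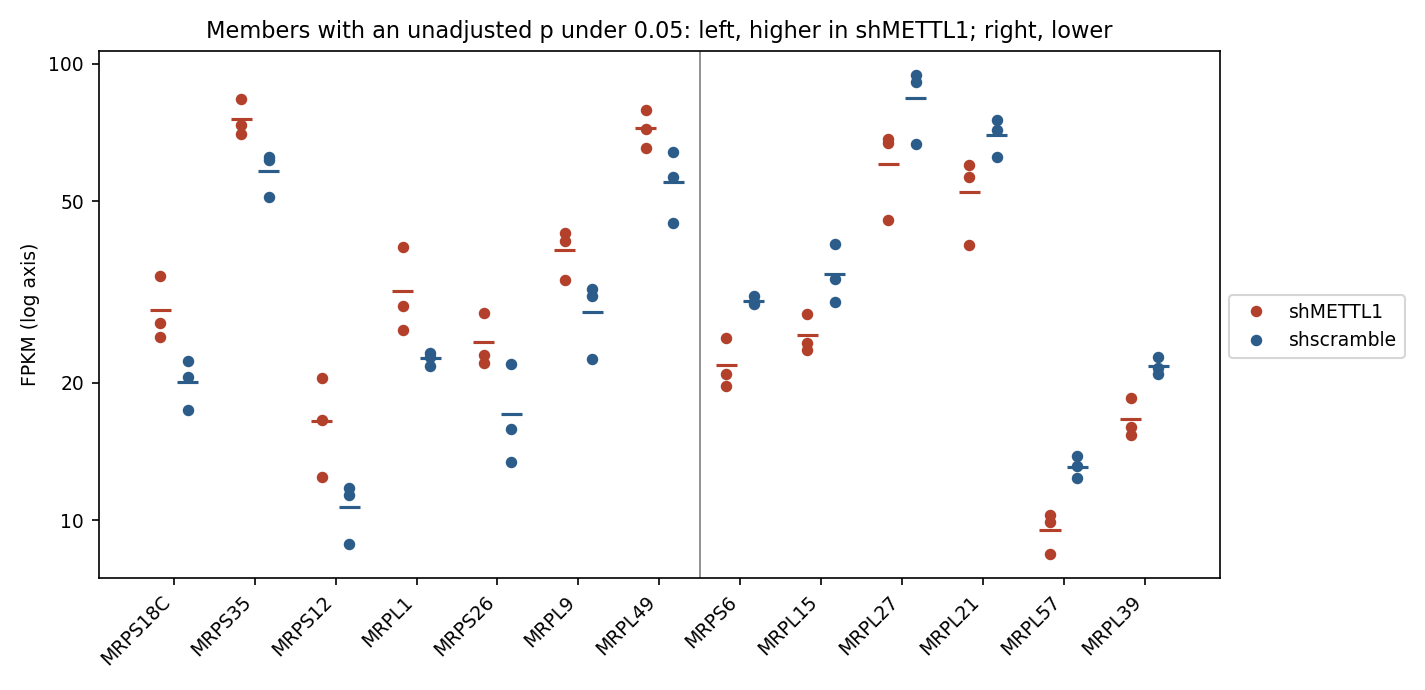
FPKM (log axis) of the 13 genes with an unadjusted limma p under 0.05 in each of the 3 shMETTL1 (red, left of each pair) and 3 shscramble libraries (blue), with the group mean as a bar. The 7 genes to the left of the grey line had higher means in shMETTL1 and the 6 to the right lower ones. MRPL27 is the gene whose groups touch, at 68.5 and 66.9 FPKM. None of the 13 passed the adjusted threshold.

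MRPS5 and MRPS9, whose bacterial counterparts take part in decoding and in binding tRNA on the small subunit, were named after their values were seen, because alternatives called them. MRPS9 had 39.9, 35.5 and 39.5 FPKM in shMETTL1, against 57.9, 34.8 and 68.3 FPKM in shscramble libraries, so that shscramble replicate 2 lay just below the shMETTL1 values. MRPS5 had 47.5, 30.5 and 33.3 FPKM in shMETTL1, against 51.5, 40.1 and 47.7 FPKM in shscramble libraries. By edgeR on all libraries they had -0.54 (adjusted p = 0.122) and -0.47 (adjusted p = 0.0965). Without shscramble replicate 2 they became -0.80 (adjusted p = 0.000375) and -0.63 (adjusted p = 0.00417), and with no filter on low counts edgeR called both (adjusted p = 0.0229 and 0.0438, where it called 7.34% of all genes).

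Position in the ribosome was followed by lists for 3 sites of the large subunit. The central protuberance, where the large subunit touches the small one and where the mitochondrial ribosome carries a tRNA as a structural part, had 7 of 8 genes with negative values and a median log2 fold change of -0.32 (-0.26 from counts). Negative values were seen for 20 of the 48 MRPL genes and 5780 of the 12156 genes tested. The count of signs at this site was not tested. None of the 8 passed the test. MRPL27 and MRPL46 were lowest at -0.49 and -0.42, MRPL52, MRPL40 and MRPL48 lay at -0.34, -0.32 and -0.31, and MRPL18, MRPL55 and MRPL38 lay at -0.047, -0.051 and 0.065. The mean of the 8 relative to the 6-library mean was -0.27, -0.19 and 0.10 on the log2 scale in shMETTL1 replicates 1, 2 and 3, against -0.016, 0.13 and 0.24 in shscramble replicates. The 2 groups overlapped because shMETTL1 replicate 3 stood among the shscramble libraries. MRPL46 and MRPL48 were among the genes edgeR called without shscramble replicate 2 (log2 fold changes -0.72 and -0.58, adjusted p = 0.0332 and 0.0443).

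The stalk that recruits translation factors (MRPL10, MRPL11, MRPL12, MRPL53 and MRPL54) had 4 of 5 positive values and a median of 0.21, where 6376 of the 12156 genes tested were positive. MRPL12, its most-copied protein and also a partner of the mitochondrial RNA polymerase, had 25.1, 32.3 and 33.8 FPKM in shMETTL1, against 20.4, 26.9 and 24.97 FPKM in shscramble libraries (log2 fold change 0.33, SE 0.18, adjusted p = 0.454). The mean of the stalk genes relative to the 6 libraries was 0.064, -0.0046 and 0.16 in shMETTL1, against -0.42, 0.066 and 0.13 in shscramble libraries. Here shscramble replicate 1 was far below the rest, and over all genes tested it was also the lowest, at -0.079. The 5 measured proteins around the exit tunnel, where new chains leave towards the membrane, had a median of 0.018. MRPL58, a peptidyl-tRNA hydrolase that was taken into the ribosome, had 60.9 ± 3.62 FPKM in shMETTL1 and 56.6 ± 5.91 FPKM in shscramble libraries (log2 fold change 0.11, SE 0.14). MRPS30, once described as a pro-apoptotic protein and placed in the large subunit, had 33.7 ± 3.82 and 31.4 ± 1.06 FPKM (0.097, SE 0.15). Both overlapped between the groups.

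By descent, the 30 MRPL genes with a bacterial counterpart had a median log2 fold change of 0.046 and the 18 without one 0.038. In the small subunit the 15 with a counterpart had 0.0052 and the 13 without one 0.059. The difference between these lists was not tested.

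**Figure D4:**
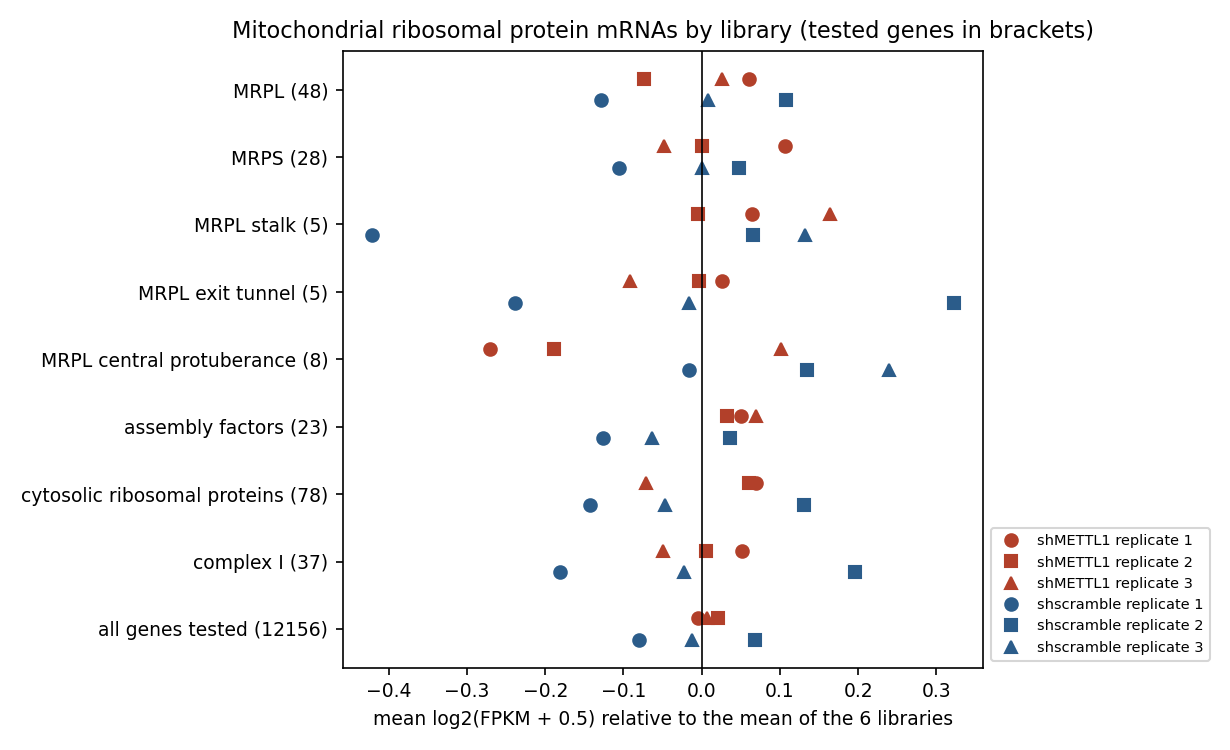
Mean log2(FPKM + 0.5) of each list for single libraries, set against the average of all 6, with shMETTL1 in red above shscramble in blue and a marker shape for each replicate number. MRPL and MRPS means overlap between the groups, with shscramble replicate 1 at -0.13 and -0.11 as the lowest of each. Over all genes tested shscramble replicate 1 is also the lowest, at -0.079. The central protuberance has shMETTL1 replicates 1 and 2 at -0.27 and -0.19, left of the 3 shscramble libraries.

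The choice of scale mattered for a few genes. FPKM rests on how fragments were shared among isoforms, whereas the count of a gene does not depend on their length. Log2 fold changes from FPKM and from counts differed by more than 0.25 for 8 of the 76 genes. That is 10.5%, against 18.6% of all genes in both fits. The sign differed for 11 members, 14.5%, against 15.6% of all genes in both fits. FPKM gave the higher value for MRPL2 (0.69 and 0.22 from FPKM and counts), MRPS18C (0.51 and 0.082), MRPS36 (-0.51 and -0.89), MRPL9 (0.45 and 0.12) and MRPS25 (0.23 and -0.080). Counts gave the higher value for MRPL52 (-0.34 and -0.046), MRPL30 (0.18 and 0.47) and MRPS16 (-0.074 and 0.22). For 34 of the 76 genes an exon overlaps one of another coding gene in GENCODE v29 (GRCh38), and 34 have named pseudogenes, 71 in all, so that reads of these genes are uncertain in their assignment.

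**Figure D5:**
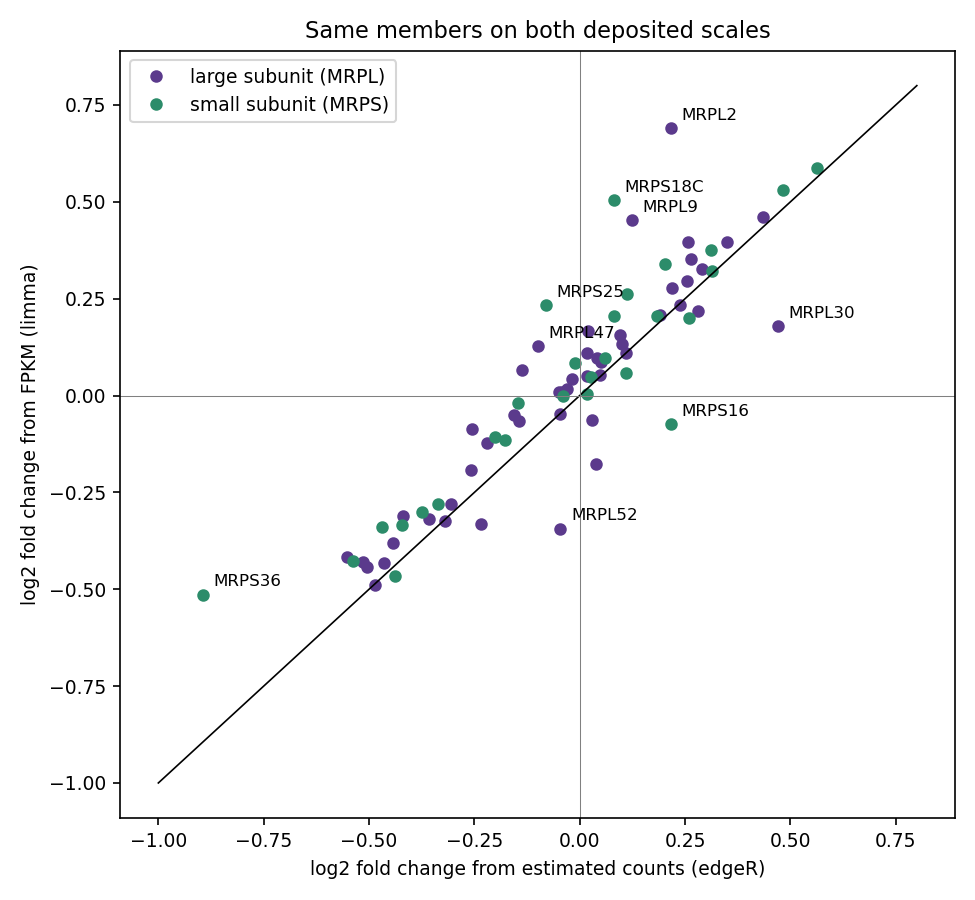
Log2 fold change of each gene from FPKM (limma, vertical) against that from the deposited counts (edgeR, horizontal), with MRPL in purple, MRPS in green and a line of equality. Most points follow the line. MRPL2, MRPS18C and MRPL9 lie far above it and MRPL52, MRPL30 and MRPS16 below it.

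The partners of the mitochondrial ribosome were followed by lists, and limma called no gene of any of them. For proteins that belong to the ribosome under other symbols, 7 symbols were listed and 5 found, with a median log2 fold change of -0.032. The symbols not found, ICT1 and MRP63, are older names of MRPL58 and MRPL57, already among the members. The 3 with the smallest p were PTCD3 (55.7 ± 9.82 and 68.3 ± 10.1 FPKM in shMETTL1 and shscramble), GADD45GIP1 (67.4 ± 23.3 and 75.2 ± 8.05 FPKM) and AURKAIP1 (109 ± 17.5 and 111 ± 2.24 FPKM). All 3 overlapped between the groups.

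Of 26 assembly and rRNA modification factors, 23 were tested and had a median of 0.090. Before adjustment 2 of them had a p under 0.05 and higher values, and 1 had lower values, together 13.04%, against 14.2% of all genes. MPV17L2, which helps to assemble the ribosome at the inner membrane, had 12.7, 11.4 and 13.8 FPKM in shMETTL1, against 6.10, 9.04 and 5.38 FPKM in shscramble libraries (log2 fold change 0.87, SE 0.24, limma adjusted p = 0.177), and edgeR called it without shscramble replicate 2 (0.99, adjusted p = 0.0199). NSUN4, an rRNA methyltransferase that also joins the subunits, had 23.2 ± 1.98 and 17.2 ± 2.39 FPKM (0.43, adjusted p = 0.329). METTL15, which methylates the small rRNA, had 4.81, 4.01 and 4.65 FPKM in shMETTL1, against 6.19, 10.5 and 13.3 FPKM in shscramble libraries (-1.01, SE 0.30, adjusted p = 0.186), but only -0.35 by edgeR on the fragments before scaling. In all 3 genes the groups did not overlap.

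The 17 translation factors and mRNA partners had a median of 0.064 from FPKM and -0.18 from counts. None had an unadjusted limma p under 0.05. By edgeR 0 were higher and 2 lower at that threshold, where 10.7% of all genes were higher and 12.1% lower. MTFMT, which formylates the initiator tRNA, had a log2 fold change of 0.32 (SE 0.20) and 0.29 from counts. RMND1 had -0.38 (SE 0.24) and -0.73 from counts (edgeR adjusted p = 0.124), without overlap. The release factor gene MTRF1L had 0.40 (SE 0.27) and 0.22 from counts. The 13 mRNAs that the mitochondrial ribosome translates had a median of 0.034. MT-ND1 had 24018, 23480 and 24865 FPKM in shMETTL1, against 20565, 22248 and 19289 FPKM in shscramble libraries (log2 fold change 0.22, SE 0.10, adjusted p = 0.349; 0.17 by edgeR on the fragments before scaling). MT-CO2 swung from library to library, with 2279, 526 and 17.1 FPKM in shMETTL1, against 733 FPKM in shscramble replicate 2 and a listing at 0 in the other two, and MT-ND3 had 806 FPKM in shMETTL1 replicate 1 and under 1 in the other 5 libraries, so neither is given a fold.

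Cytosolic ribosomal proteins and complex I stood beside the family as lists of like size. The 78 cytosolic ribosomal protein genes had a median log2 fold change of 0.058. Of these, 3 were higher and 8 lower when p was not adjusted, together 14.1%, against 14.2% of all genes, and edgeR called 2 of 77 lower, where it called 6.33% of all genes. RPL14 had 466, 520 and 496 FPKM in shMETTL1, against 783, 546 and 764 FPKM in shscramble libraries (log2 fold change -0.48, limma adjusted p = 0.238, edgeR adjusted p = 0.0290), RPL36A had -0.35 (adjusted p = 0.243) and RPL11 had -0.33 (adjusted p = 0.244). The 37 complex I genes, many of whose partners the mitochondrial ribosome makes, had a median of 0.011, with 1 gene higher and 2 lower at the unadjusted threshold, together 8.11%, against 14.2% of all genes. NDUFA1 had 38.5, 44.4 and 44.7 FPKM in shMETTL1, against 63.3, 69.5 and 58.0 FPKM in shscramble libraries (log2 fold change -0.57, limma adjusted p = 0.151), and edgeR called it lower (adjusted p = 0.0344). NDUFC1 and NDUFB4 had -0.94 (adjusted p = 0.227) and 0.40 (adjusted p = 0.349).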

How the data were processed

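The authors deposited FPKM and estimated counts, 1 table for each of the 6 libraries. Tools listed in the submitters' processing notes are Cufflinks, Cuffdiff, HISAT2 2.0.4 and cutadapt 1.9.3, and hg19 is the genome build, and what each was used for is not given there. In these deposited estimated counts most genes have whole fragments multiplied by 1 factor per library. Symbols were paired with 19434 of 20308 identifiers. The test was limma 3.58.1 (R 4.3.3), with trend and robust prior, on log2(FPKM + 0.5), for the 12156 genes whose mean FPKM reached 0.5, two-sided and unpaired, with Benjamini-Hochberg adjustment over all genes and calls at an adjusted p under 0.05. Fold changes on this scale understate the change of low genes. Counts, rounded to whole numbers, were tested by the quasi-likelihood test of edgeR 4.0.16, and by DESeq2 1.42.0 and limma on log2 CPM (prior count 2) as alternatives. Division of the counts by their step was added after seeing the data. Functions were tested on simulated data.

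The members and lists were chosen with earlier results of these data known. Genes named were METTL1, any member called by limma or edgeR, the 8 members of each subunit with the smallest limma p, the 3 highest and 3 lowest by level, MRPL12, MRPL44, MRPL58, MRPS12, MRPS30 and the MRPS18 paralogues for their roles, and 3 genes per companion list by p. MRPL2, MRPL46, MRPL48, MRPS5, MRPS9, the other central protuberance genes, genes that differ between scales, and the genes that overlap a member were named after their values were seen. The counting error given for fragments takes them as independent molecules, which PCR copies are not. Coordinates are GRCh38 and were not mixed with the files, which hold none.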

Additional observations from a re-analysis of the deposited data

How the results depend on the processing

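The counts of called MRPL and MRPS genes stayed at 0 in every alternative run with limma, DESeq2 or edgeR on the fragments before scaling. With no filter on low counts edgeR called 2 MRPS genes lower, and with the replicate block it also called 2 MRPS genes lower, MRPS5 and MRPS9 in both. The replicate numbers did not pair the libraries, with correlations of same-numbered deviations of 0.0024, 0.053 and -0.024. With the block limma called 6 genes of the table in place of 15, and edgeR called 1015 in place of 712. Leaving out 1 library at a time, by limma or edgeR, gave 0 to 1 MRPL genes called higher, 0 to 2 MRPL genes lower, 0 to 1 MRPS genes higher and 0 to 2 MRPS genes lower, and 3 to 189 genes of the table by limma and 270 to 1989 by edgeR, both highest without shscramble replicate 2. The median log2 fold change then ran from -0.081 to 0.11 for MRPL (-0.081 by limma and -0.063 by edgeR without shMETTL1 replicate 1) and from -0.062 (by edgeR without shscramble replicate 3) to 0.13 for MRPS, so neither sign is fixed. In the other refits both medians moved by less than 1 SD between libraries (0.097 and 0.079). Of the 1363 refits of named genes, 1258 kept direction and side of the threshold, 47 passed the threshold where limma on all libraries did not (METTL1, MPV17L2, MRPL27, MRPL46, MRPL48, MRPL49, MRPS26, MRPS5, MRPS9, MT-CO2, MT-ND3, NDUFA1, NDUFB4, RPL11, RPL14 and RPL36A in 1 or more refits), and 58 changed sign, in 15 genes.

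On counts, MRPL38 had -0.13 by DESeq2, -0.13 and -0.14 by edgeR before and after scaling, -0.14 with the replicate block, -0.13 without the filter and -0.14 by limma on log2 CPM. In the same order MRPS16 had 0.22, 0.21, 0.22, 0.22, 0.22 and 0.22, and MRPS25 had -0.077, -0.074, -0.080, -0.089, -0.073 and -0.092. With 1 library left out, values ran from -0.27 to 0.24 for MRPL38, -0.15 to 0.26 for MRPS16, -0.20 to 0.38 for MRPS25, -0.17 to 0.060 for AURKAIP1, -0.26 to 0.13 for MRPL18, -0.093 to 0.99 for MRPL2, -0.26 to 0.88 for MRPL30, -0.50 to 0.16 for MRPL52 and -0.34 to 0.058 for MRPL55. They ran from -0.056 to 0.18 for MRPL58, -0.070 to 0.39 for MRPS18A, -0.0043 to 0.18 for MRPS18B, -0.13 to 0.60 for MRPS18C, -0.027 to 0.31 for MRPS28 and -0.017 to 0.19 for MRPS30. The cause was not tested. At a median of 125 fragments per member and library, the 95% interval of 29 of the 76 lay within 1.5-fold either way.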
